A study of Mus musculus with 4 samples.

Results

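This report describes 51 cells of the mouse embryonic day 9.5 (E9.5) atrioventricular canal that carried transcripts of the proepicardium and epicardium, out of 1199 kept E9.5 cells and 2160 cells in the series. They were chosen by measured values: a cell had at least 500 genes, at most 10% of its UMIs (unique molecular identifiers, each 1 counted transcript) from mitochondrial genes, fewer than 100 UMIs per 10000 from Myl7, Myl4, Tnnt2 and Actc1, and fewer than 1000 from globin genes. A member also had at least 1 UMI for 3 or more of Tbx18, Upk3b, Wt1, Tcf21 and Upk1b, called the rule genes here. The members made up 4.25% of the kept E9.5 cells (exact binomial 95% interval 3.18 to 5.55, counting error only) and 12.6% (9.5 to 16.2) of the 406 cells under both limits. The limits left aside 546 cells rich in cardiomyocyte transcripts and 247 rich in globins.

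The series followed cells of the Tie2-Cre lineage through valve formation by droplet single-cell RNA sequencing of 3' ends. All groups were C57BL/6 mouse hearts from the cross of Tie2-Cre, which is driven by the promoter of the endothelial receptor gene Tek, with a Rosa26 tdTomato reporter, and in all of them cells were sorted for red fluorescence. A single library came from E9.5 hearts (dissected atrioventricular canal) and the other 3 from mitral valves, 1 of them at E16.5 and 2 on the day of birth (P0), with at least 60 embryos pooled per stage. Counts of tdTomato itself were not among the genes, which leaves the sort unchecked here.

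The epicardium is the mesothelial sheet that covers the outside of the heart. It comes from the proepicardium, a cluster of mesothelial cells by the septum transversum at the venous pole, whose cells cross to the bare myocardium and spread over it, starting in mice at about the stage sampled here. Some epicardial cells later lose their epithelial form and give rise to fibroblasts and to the mural cells of coronary vessels, and the sheet exchanges retinoic acid, FGF, Wnt and IGF signals with the myocardium below it.

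With 1 library at E9.5 there was no replicate, and cells of 1 library are not replicates, so no test was made and every comparison below describes these cells. A level is the gene's UMIs per 10000 UMIs summed over a group of cells, with an exact Poisson 95% interval that covers counting error only. A ratio is the quotient of 2 levels with 0.1 added to both, and a gene counted as higher or lower at a ratio of at least 2-fold, among the 12255 genes with at least 30 UMIs in the kept cells. Levels were compared within a gene and not between genes. Because the members were selected by transcripts of the same cells, a higher level in them was fixed for the rule genes and could follow from the selection for any other gene.

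The upstream sequence of 3 rule genes and of Lrrn4, a leucine-rich repeat membrane protein of mesothelium whose transcript had the highest correlation with Upk3b across cells after Wt1, is shown because these genes were found in the same cells. Each line holds 200 bases on the gene's strand, from 250 to 51 bases before the RefSeq start in GRCm38.p6. Capitals mark GGAATG, the core recognised by TEAD factors, on either strand.
Upk3b: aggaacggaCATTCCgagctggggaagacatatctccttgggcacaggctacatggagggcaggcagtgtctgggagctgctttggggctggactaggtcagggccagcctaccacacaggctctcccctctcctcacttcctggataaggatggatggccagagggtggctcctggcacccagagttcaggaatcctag
Lrrn4: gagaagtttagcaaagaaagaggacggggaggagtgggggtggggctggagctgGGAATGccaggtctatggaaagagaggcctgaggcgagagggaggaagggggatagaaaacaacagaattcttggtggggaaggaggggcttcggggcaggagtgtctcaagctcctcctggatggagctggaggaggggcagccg
Tbx18: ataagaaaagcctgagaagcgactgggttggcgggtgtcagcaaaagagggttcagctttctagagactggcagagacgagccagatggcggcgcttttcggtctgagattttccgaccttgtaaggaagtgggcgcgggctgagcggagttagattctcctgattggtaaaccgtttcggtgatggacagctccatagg
Tcf21: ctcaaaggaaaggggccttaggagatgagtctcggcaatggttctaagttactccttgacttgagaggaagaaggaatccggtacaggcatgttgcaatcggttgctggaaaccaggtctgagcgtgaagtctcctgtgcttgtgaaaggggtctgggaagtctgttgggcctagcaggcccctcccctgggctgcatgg
The windows lie at chr5:136038246-136038445 (plus strand, Upk3b), chr2:132880913-132881112 (minus strand, Lrrn4), chr9:87731311-87731510 (minus strand, Tbx18) and chr10:22820194-22820393 (minus strand, Tcf21). All 4 are upstream of their gene, and only the window of Tbx18 overlaps an annotated exon, that of the unclassified transcript D030062O11Rik on the other strand. GGAATG was found from 241 to 236 bases before the start of Upk3b and from 196 to 191 bases before the start of Lrrn4, against 10.7% of the 32851 RefSeq windows of the same length. None of the 4 windows held CAGCTG (an E-box, in 10.3% of all windows), GGTGTGA (a T-box core, 2.71%), AGATAA (for Gata4 and its relatives, 8.42%) or GCGTGGG (a WT1 and EGR type, 3.27%) on either strand. A match of letters is not a site, and its absence says only that these letters are not in these windows.

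The rule genes encode 3 transcription factors and 2 membrane proteins of the urothelium and mesothelium. Tbx18, a T-box repressor of the proepicardium and sinus horns, had 551 UMIs in the members, a level of 3.91 (3.59 to 4.25) against 0.094 (0.0833 to 0.106) in all other E9.5 cells. Per cell it ran from 0 to 8.53 with a median of 4.03. Most members had it, since 45 of 51 had at least 1 UMI.

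Wt1, the Wilms tumour zinc finger factor needed for epicardial integrity, had a level of 2.65 (2.39 to 2.93) in the members and 0.0518 in the others, with 46 members positive. Tcf21, a bHLH factor of the epicardium and of fibroblast precursors, had 2.31 (2.07 to 2.58) against 0.123, with 48 members positive. Tcf21 had the lowest ratio of the 5 to all other cells, 10.8, and 95 of the 355 other cells under both limits also had it and its level there was 0.321. Gm10824 overlaps the whole of Tcf21 on the other strand, and D030062O11Rik overlaps 1976 bases of Tbx18 on the other strand. Neither transcript is in the gene table, and the strand used for counting is not given in the sources used here. Whether reads of these pairs were counted together was not tested.

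Upk3b, a uroplakin of the mesothelial surface, had 4.14 (3.81 to 4.49) in the members and 0.048 in the others, with 45 members positive and cells up to 16.2. Upk1b, a tetraspanin uroplakin, had 1.69 (1.48 to 1.92) against 0.032, but 30 of 51 members, 58.8%, had a UMI. All 5 rule genes occurred together in 26 members, 4 of them in 9 and 3 of them in 16. The most frequent set of 4 lacked Upk1b (6 members), and so did 15 of the 16 members with 3.

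Free RNA gives UMIs in cells that do not express a gene, so the globin-rich cells served as the type that should lack all 5. Of these cells 4.05% had a Tbx18 UMI, 4.45% Upk3b, 2.83% Wt1, 3.64% Tcf21 and 2.43% Upk1b, at a median depth of 32453 UMIs against 27717 in the members. With every cell thinned to 5000 UMIs, the members' shares were 66.7% for Tbx18, 70.6% for Upk3b, 60.8% for Wt1, 60.8% for Tcf21 and 39.2% for Upk1b. The thinned shares of globin-rich cells were 0.81%, 1.62%, 0.405%, 0.81% and 0.405% in the same order. The rule itself fixed high shares in the members, also after thinning. The globin-rich shares are given only as the level of background in that type. Cardiomyocyte-rich cells had a median depth of 23528.5 UMIs. Of them 13.6% had a Tbx18 UMI, 3.3% Upk3b, 10.8% Wt1, 10.1% Tcf21 and 10.4% Upk1b. Their thinned shares were 4.21%, 0.916%, 2.75%, 3.48% and 3.3% in the same order. Whether these UMIs were background was not tested.

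The threshold separated groups that graded into each other. The 16 cells just inside it, with 3 rule genes, had a median of 13 rule-gene UMIs (3 to 29), and the 29 cells just outside it, with 2, had a median of 5 (2 to 15). Cells with 4 rule genes had a median of 25 and those with all 5 a median of 48.5 (20 to 144). Another 11 kept cells had 3 or more rule genes but lay over the cardiomyocyte or globin limit.

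**Figure D1:**
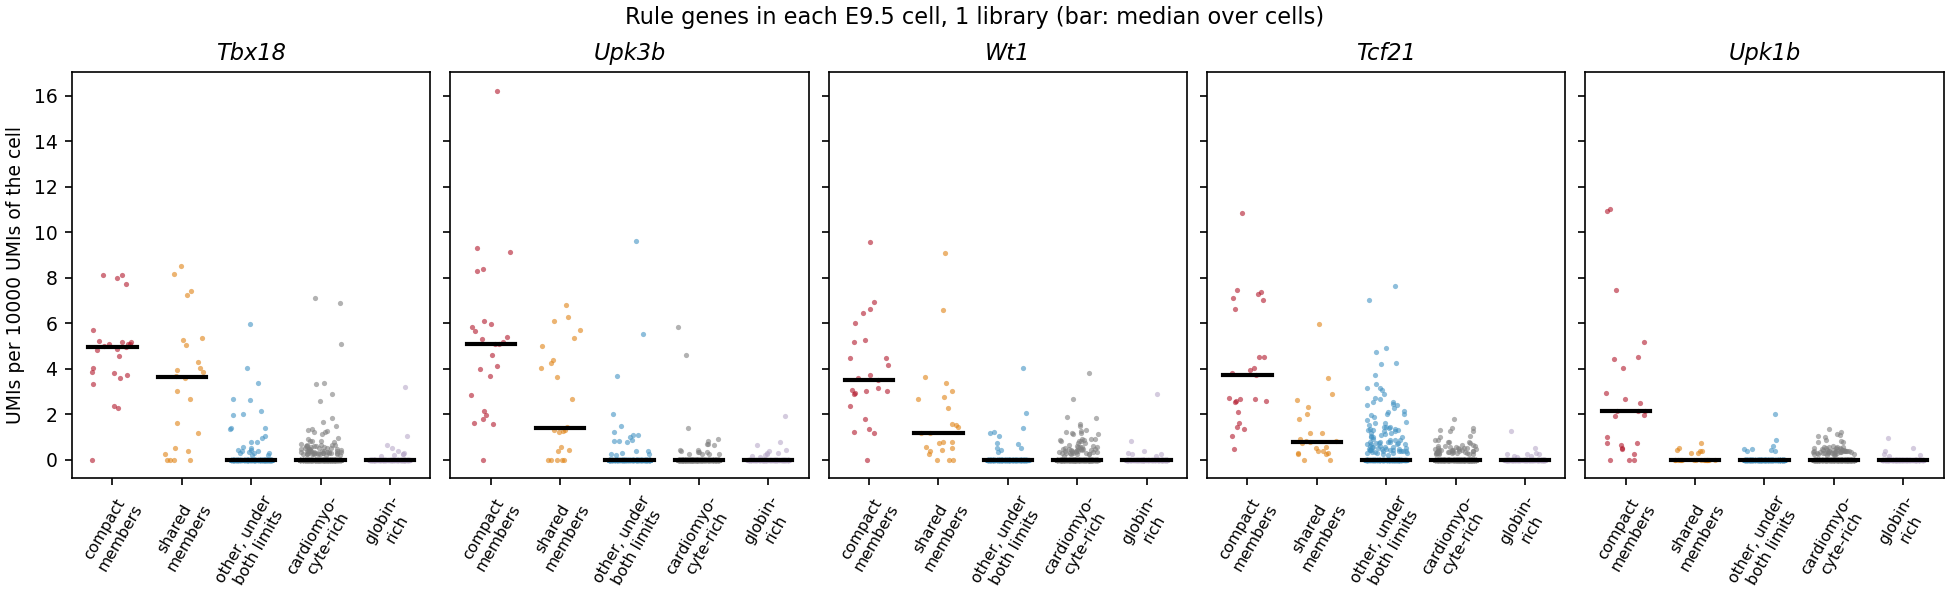
Each dot is 1 kept E9.5 cell, and the y axis gives UMIs per 10000 UMIs of that cell for each rule gene, by group; black bars are medians over cells and x positions within a group are random. Members of the compact cluster sit highest for all 5 genes by median, and Upk1b has a median of 0 in the members of the shared cluster.

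The label was checked by clustering all kept E9.5 cells with the rule genes left out. The members then fell into a pair of clusters of different make-up, not into 1. A compact cluster of 28 cells held 25 members (49% of them), of which 20 had all 5 rule genes, and its leading genes, ranked with the rule genes left out, were Tubb3, Sfrp5, Itga4, Lhx9, Pmp22, Ccnd1, Mest, Cthrc1, Aplp1 and Sox9. Its 3 other cells were 1 with 2 rule genes and 2 with all 5 that lay over a limit.

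A larger cluster of 81 cells held 24 members beside 57 cells that did not meet the rule, and it is called the shared cluster here. Of its members 6 had all 5 rule genes, 5 had 4 and 13 had 3, and its leading genes were Dlk1, Ptn, Col1a1, Crabp1, Meg3, Col3a1, Asb4, Col1a2, Pcolce and Sfrp1. The last 2 members lay singly in 2 other clusters, of 86 and 24 cells. At resolutions of 0.5 and 2 the same 25 members again made up the compact cluster, but the shared cluster was not stable. At 0.5 its 24 members lay in a cluster of 167 cells, and at 2 they split into 18 and 6.

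The rule genes were left out of both the clustering and the ranking, and none of the leading genes that remained was in the list of epicardial and mesothelial genes outside the rule. The compact members were the ones in which the rule genes ran highest together: Tbx18 had 4.78 (4.29 to 5.3), Upk3b 5.54 (5.01 to 6.1), Wt1 3.89 (3.45 to 4.37), Tcf21 3.35 (2.94 to 3.79) and Upk1b 3.09 (2.7 to 3.52). In the shared members the levels were 3.02 (2.61 to 3.48), 2.63 (2.24 to 3.06), 1.37 (1.1 to 1.69), 1.18 (0.928 to 1.48) and 0.142 (0.0647 to 0.269) in the same order. Upk1b separated them most, with 22 of 25 compact and 7 of 24 shared members positive. In the 57 cells of that cluster that did not meet the rule, Tbx18 was 0.495, Upk3b 0.369, Wt1 0.173, Tcf21 0.322 and Upk1b 0.055 (0.0221 to 0.113). The rule chose members over these cells by the same genes, and Upk1b did not differ by 2-fold even so. The epicardial label is used below for the members by their rule, and the shared members are named below only by their cluster.

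**Figure D2:**
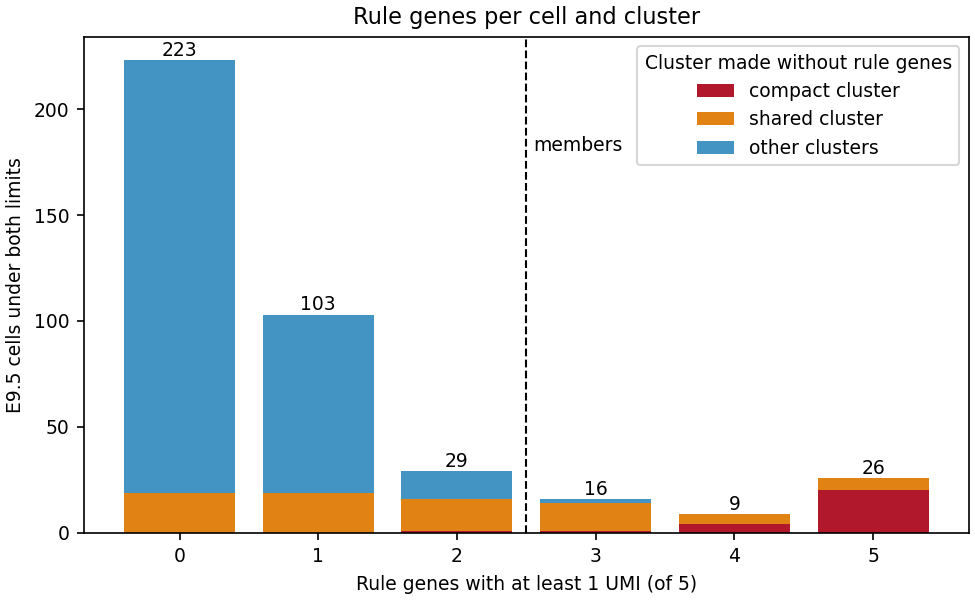
Bars count the 406 E9.5 cells under both limits by the number of rule genes with at least 1 UMI (x axis), coloured by cluster, with the clusters made without the rule genes; the dashed line is the member threshold. The compact cluster appears almost only at 4 and 5 rule genes (4 and 20 cells), whereas the shared cluster spans 0 to 5.

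Of the 20 epicardial and mesothelial genes outside the rule, 17 were measured, and 12 of these were higher in the members than in all other E9.5 cells and 0 were lower. Over all measured genes 2.48% were higher and 2.84% lower in this comparison, with a median ratio of 1.08 against 2.54 for the list. Set against the 355 other cells under both limits, 10 were higher and 1 was lower, where 1.49% of all genes were higher and 2.33% lower. These are counts in the cells the rule selected and carry no test.

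Lrrn4 had 148 UMIs in the members, a level of 1.05 (0.887 to 1.23), against 0.0604 (0.0448 to 0.0796) in the other cells under both limits, with 35 of 51 members positive. Bnc1, the zinc finger factor basonuclin of mesothelium and other epithelia, had 0.489 (0.381 to 0.619) against 0.0254. Scx, scleraxis, which marks a subset of proepicardial cells, had 0.34 (0.251 to 0.451) against 0.00966, and Sema3d, a secreted semaphorin of the proepicardium, 0.319 (0.233 to 0.427) against 0.0314. All 4 were scarce in the globin-rich cells, where 1 of 247 had a UMI for Lrrn4, 3 for Bnc1, 3 for Scx and 2 for Sema3d.

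Other genes of the list were shared with other cells. The keratin Krt19 had 1.34 (1.16 to 1.55) in the members and 0.214 in the other cells under both limits, and Krt18 2.93 against 1.32. Ezr, the ezrin that links membrane to actin, had 1.94 (1.72 to 2.19) against 0.429, and Podxl, the anti-adhesive sialomucin podocalyxin, 1.1 against 0.284. Igfbp5, an IGF-binding protein, was found in 51 of 51 members at 7.31 (6.87 to 7.77) against 1.64. Alcam, an immunoglobulin-type adhesion molecule, had 0.815 against 0.0785. Cardiomyocyte-rich cells also held Igfbp5 (5.23), Alcam (0.685) and Krt19 (0.629), and the ratios to all other cells were 2.54, 2.14 and 3.21.

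Some genes of the mature mesothelium were not seen. Msln (mesothelin), Muc16 and Dmkn had 0 UMIs in the members, where 0 of 51 cells allows a share of up to 5.88% of cells with a UMI. Krt8 did not reach 2-fold, at 2.01 (1.78 to 2.25) against 1.24 (1.17 to 1.32). Gata5, a zinc finger factor of the heart, was the gene of the list that was lower, with 0.347 (0.257 to 0.459) against 0.809. Summed over the list, the level per cell ran from 2.12 to 55.1 with a median of 20.4 in the members and from 0 to 86.3 with a median of 3.58 in the other cells under both limits, so the ranges overlapped. Those other cells included 69 with Osr1 and few endothelial genes (median 9.4) and 29 with 2 rule genes (median 9.86). Against the 69 cells, 9 of the 17 measured genes were higher and 2 lower, Aldh1a2 and Gata5. The median ratio was 2.07 for the list and 0.985 for all measured genes. Sema3d and Krt18 did not reach 2-fold there.

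**Figure D3:**
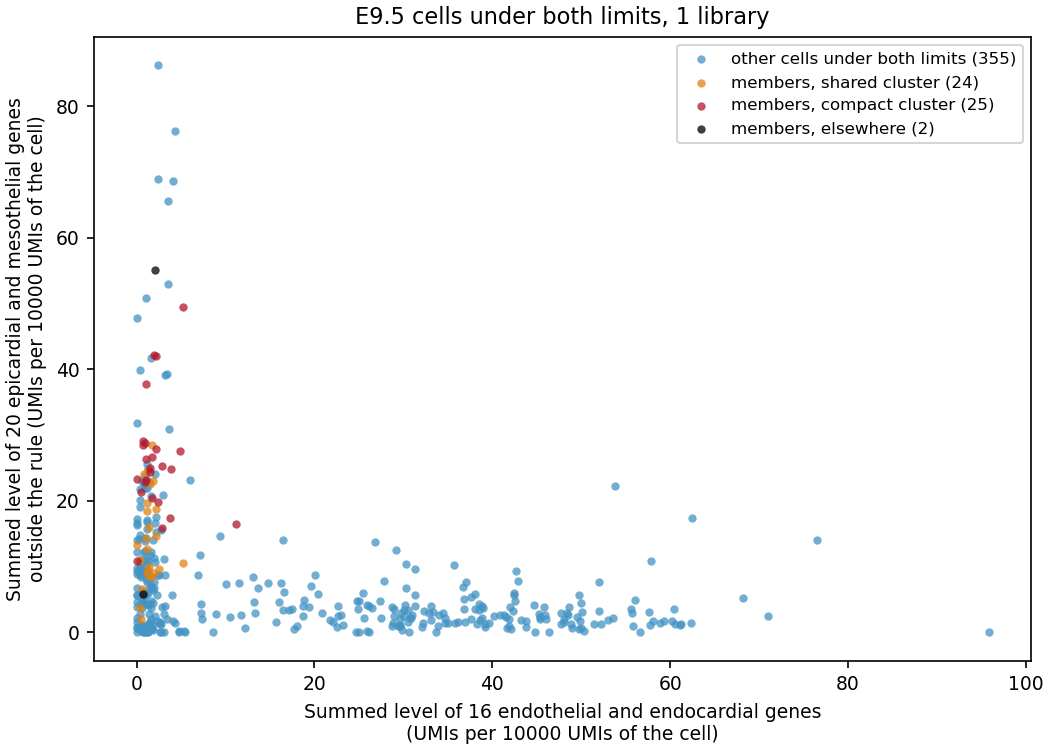
Each dot is 1 of the 406 E9.5 cells under both limits; the x axis is the summed level of 16 endothelial and endocardial genes and the y axis that of 20 epicardial and mesothelial genes outside the rule, both in UMIs per 10000 UMIs of the cell. All 51 members lie at or below 11.2 on the x axis, while the other cells reach 95.8.

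The lineage sorted for is endothelial, so its markers were read in the members. Of 16 endothelial and endocardial genes, all measured, 15 were lower in the members than in the other cells under both limits and 0 higher, with a median ratio of 0.165. Those 355 cells included 163 with at least 3 of 5 endothelial genes. Summed over the list, the level was 38.2 in these 163 and 1.85 in the members. It was 1.4 in 69 other cells with Osr1 and few endothelial genes and 1.25 in the cardiomyocyte-rich cells. Against the Osr1 cells 2 of the 16 genes were lower and 1 higher, with a median ratio of 1.23 against 0.985 over all measured genes. Most of the low values were therefore not particular to the members. Plvap, a protein of endothelial fenestrae, had 15 UMIs and a level of 0.106 (0.0595 to 0.175) against 3.11 (2.99 to 3.23), and Cdh5, VE-cadherin, 7 UMIs in 2 members and 0.0496 against 0.929. Emcn, endomucin, had 2 UMIs in all. Tek itself, the gene whose promoter drives the Cre, had 14 UMIs in 11 of 51 members, 12 of them in the compact ones, a level of 0.0993 (0.0543 to 0.167) against 0.659 in the other cells under both limits and 1.27 in the 163 cells with at least 3 of 5 endothelial genes. Flt1, a VEGF receptor, was the exception to the lower levels with a ratio of 0.595 and UMIs in 22 members. Of the 5 genes Pecam1, Cdh5, Tek, Kdr and Emcn, 33 members had none, 13 had 1, 4 had 2 and 1 had 4.

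Markers of other cell types in the members were given as measured values, and their part in the results was not tested. Cardiomyocyte genes summed to 43.3 UMIs per 10000 in the members (19.4 to 90.7 per cell), 22.7 in the other cells under both limits and 654 in the cardiomyocyte-rich cells. Myl7, the atrial light chain, was 18.5 (17.8 to 19.2) in the members against 8.04, and 3 of 14 cardiomyocyte genes (Myl7, Myl4 and Tnni1) were higher than in those cells and 0 lower, all under the limit that the rule set. Globins and other erythroid genes summed to 65.1 in the members, 69.3 in the other cells under both limits and 3807 in the globin-rich cells, so the members and the other cells under the limits held them at a similar low level. Blood and myeloid genes summed to 0.0638 in the members, with Ptprc and Itga2b at 0 UMIs, and foregut and liver endoderm genes to 0.0567, with Epcam, Foxa1, Foxa2, Sox17 and Ttr at 0 UMIs. Against the other cells under both limits, 3 of 6 measured blood genes and 4 of 6 endoderm genes were lower, 0 of 11 erythroid genes passed 2-fold either way, and 2 of 9 dissociation stress genes were higher, Fos (2.56 against 0.807) and Egr1 (0.865 against 0.239). None of the 51 was scored as a doublet, in a run that scored 4 of 1199 cells and so gives little information.

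Of 17 heart and mesothelial transcription factors 16 were measured, and against the other cells under both limits 2 were higher and 1 lower. Lhx9, a LIM homeobox factor of mesothelium and gonad, had 173 UMIs in 26 members, a level of 1.23 (1.05 to 1.42) against 0.00604 (0.00196 to 0.0141), a ratio of 12.5. Mab21l2, which is needed for the septum transversum and proepicardium in mice, had 0.397 (0.3 to 0.516) against 0.124. Tbx20, a T-box factor of myocardium and endocardium, was the lower one with 0.227 (0.155 to 0.32) against 0.896. The GATA factors Gata4 and Gata6 did not reach 2-fold, at 1.34 (1.16 to 1.55) against 1.19 and 1.82 (1.61 to 2.06) against 1.12, and 49 of 51 members had Gata6.

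The septum transversum and liver mesenchyme list had 9 measured genes, of which the same Lhx9 and Mab21l2 were higher and 0 lower. Its liver-side genes were scarce, with Hgf at 0 UMIs, Hlx at 6 and Reln at 1 in the members. Of 13 genes of the venous pole and posterior heart field, all measured, 1 was higher and 1 lower. Shox2, a homeobox factor of the sinus venosus, had 0.73 (0.596 to 0.886) against 0.0616, with UMIs in 20 members. Osr1, an odd-skipped factor of the posterior field, was the lower gene at 0.0922 (0.0491 to 0.158) against 0.56, and Foxf2 had 0 UMIs in the members. The 69 cells with Osr1 and few endothelial genes had 2.95 for Osr1, and held 0.0198 for Wt1, 0.205 for Upk3b and 1.01 for Tcf21.

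**Figure D4:**
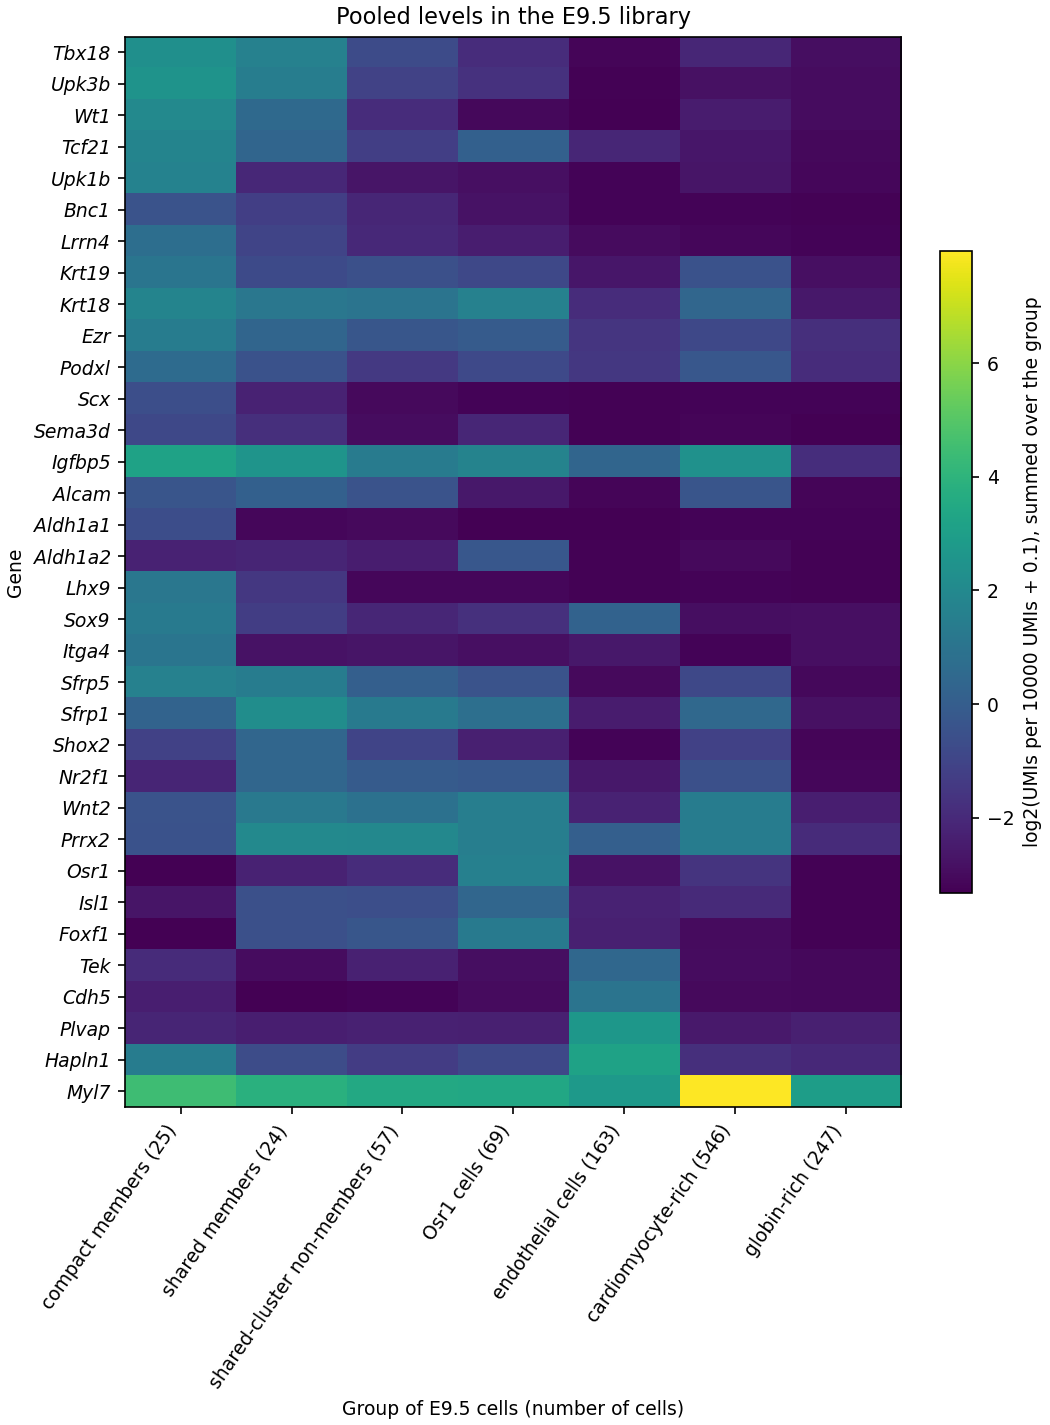
Colours give log2 of the pooled level plus 0.1 (UMIs per 10000 UMIs) for 34 genes (rows) in 7 groups of E9.5 cells (columns, number of cells in brackets). The compact members combine the rule genes with Lrrn4, Lhx9, Sox9 and Itga4, and the shared members combine Tbx18 and Upk3b with Sfrp1, Shox2, Nr2f1 and Prrx2. Of these, Sfrp1, Nr2f1 and Prrx2 did not differ by 2-fold between the shared members and the shared-cluster non-members.

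Among retinoic acid genes 16 of 18 were measured, and against the other cells under both limits 1 was higher and 3 lower. Aldh1a1, a retinaldehyde dehydrogenase, had 41 UMIs in 12 members and 0 in the 355 other cells, which puts it at least 80.2-fold higher at the limit of 3 counts over those cells. Aldh1a2, the retinaldehyde dehydrogenase known as the epicardial and venous-pole source of retinoic acid, stayed at 0.113 (0.0648 to 0.184) against 0.145 (0.12 to 0.173), and the Osr1 cells had 0.726. The lower genes were the binding protein Crabp1 (0.291 against 1.62), the catabolic enzyme Cyp26a1 (0.0284 against 0.164) and the receptor Rarg (0.0213 against 0.163).

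In the Wnt list 18 of 20 genes were measured, with 2 higher and 1 lower. Both higher genes encode secreted frizzled-related proteins, which bind Wnt ligands: Sfrp5 had 2.73 (2.46 to 3.02) against 0.22, and Sfrp1 2.7 (2.44 to 2.99) against 0.659. Sfrp1 was found in 49 of 51 members and Sfrp5 in 37. Against the Osr1 cells only Sfrp5 was higher in the members, and 3 genes of the list were lower. The list's median ratio there was 0.741, against 0.985 over all measured genes. Against the non-members of the shared cluster only Sfrp5 was higher in the shared members, and 2 genes were lower. Over all measured genes 0.539% were higher and 1.01% lower in that comparison. Sfrp1 was among 7 genes lower in the compact members than in those non-members, with 2 higher. The list's median ratio was 0.671 in that case, against 0.968 over all measured genes. The lower gene was the ligand Wnt4 (0.0354 against 0.199), while the ligand Wnt2 was 1.37 against 0.79 and the target Axin2 had 5 UMIs.

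In the BMP and TGF-beta list 23 of 27 genes were measured, with 3 higher and 3 lower. The higher ones were the ligand Bmp2 (0.688 against 0.169), the secreted BMP antagonist Nog (0.411 against 0.0302) and the decoy receptor Bambi (4.06 against 1.93). The lower ones were the ligand Tgfb1 (0.0851 against 1.26), the inhibitory Smad6 (0.39 against 1.14) and the activin-binding Fst (0.0142 against 0.146). Against the Osr1 cells Bmp2 and Nog were higher in the members, and Bmp4 and Fst were lower. Bambi, Tgfb1 and Smad6 did not reach 2-fold there. Tgfb2, the ligand of heart mesenchyme, was in 45 members with 1.43 against 0.68, just under 2-fold. Tgfbr2 had 0 UMIs in the members.

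Of 13 measured FGF genes 1 was higher, the feedback inhibitor Spry1 (0.354 against 0.0858), and 0 were lower. The ligands Fgf9 and Fgf10 had 3 UMIs each in the members, and Fgf18, with too few UMIs in all to be measured, had 15 UMIs in 10 members against 4 in 4 of the other 355. Of 10 measured hedgehog genes 1 was higher, the co-receptor Gas1 (1.64 against 0.637), while the ligand Shh had 0 UMIs and the targets Ptch1 and Gli1 had 11 and 4. Of 13 measured PDGF and IGF genes, Igfbp5 was higher and Igf1 lower (0.163 against 0.668). Igfbp5 was higher against the Osr1 cells too, whereas Gas1 and Igf1 did not reach 2-fold there. The receptor Pdgfra was 0.411 against 0.217 and the ligand Igf2 2.63 against 2.48, both under 2-fold.

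Of 18 measured genes of adhesion and epithelial junctions, 6 were higher and 2 lower. The higher ones were Itga4, the alpha4 integrin that in mice is needed for the epicardium to stay on the heart (1.08, 0.913 to 1.26, against 0.0701), the cadherins Cdh2 (1.14 against 0.255) and Cdh3 (0.482 against 0.105), and Alcam, Podxl and Ezr from above. The lower ones were Epcam, with 0 UMIs against 0.32, and the tight junction gene Cldn6. Against the Osr1 cells Cdh2 did not reach 2-fold, the rest of these genes kept their direction and Cdh11 was also lower. Vcam1, the partner of Itga4 on myocardium, had 0.0354 in the members and 1.17 in the cardiomyocyte-rich cells. Cdh1, E-cadherin, had 2 UMIs in the members.

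The matrix list went the other way against the cells under both limits, with 1 of 29 measured genes higher and 9 lower. Fbln2, fibulin 2, was the higher one at 0.674 (0.545 to 0.823) against 0.234. The lower ones included Fn1 (2.2 against 5.77), Hapln1 (1.63 against 5.22) and Col4a1 (0.347 against 1.03), which the 163 endothelial cells held at 9.75, 9.07 and 1.77. Against the Osr1 cells Hapln1, Sparc and Fbln2 were higher in the members, and Col1a1, Col3a1, Npnt and Postn were lower. Fn1 and Col4a1 did not reach 2-fold there. Against all other E9.5 cells the same list had 3 higher, among them Sparc (8.3 against 3.1), and 1 lower. Of 9 EMT transcription factors 0 were higher and 2 lower, Snai1 (0.0425 against 0.419) and Prrx1 (0.0709 against 0.379). Sox9 was 1.38 against 0.859 and Twist1 0.539 against 0.803. Of 7 smooth muscle and pericyte genes 1 was higher, Tagln (2.06 against 0.643), and Cspg4 had 0 UMIs. Of 10 pharyngeal mesenchyme genes 4 were lower and 0 higher, Crabp1, Prrx1, Dlx2 and Dlx5.

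No gene of the S phase list (10 measured) or of the G2 and M phase list (10 measured) reached 2-fold. The S phase genes summed to 13.5 per 10000 in the members (3.68 to 31.8 per cell) and 18 in the other cells under both limits, and the G2 and M phase genes to 21.5 (1.54 to 45.3) and 18.7.

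Outside the lists, the genes with the highest ratios to the other cells under both limits were Tdo2, Mgarp, Aplp1, Smim1, Ddr1, Sdc4, Myrf, Plppr5, Loxl1, Actn3, Flrt2 and Lpl. Tdo2, tryptophan 2,3-dioxygenase, had 99 UMIs in 16 members at 0.702 (0.57 to 0.855) against 0.0145. Aplp1, an amyloid precursor-like protein, had 1.18 (1 to 1.37) against 0.1, and Myrf, a membrane-bound transcription factor, 0.971 (0.815 to 1.15) against 0.123, in 44 of 51 members. The collagen receptor Ddr1 had 1 against 0.0845, the syndecan Sdc4 0.872 against 0.0773 and Flrt2, a membrane protein needed for epicardial integrity in mice, 1.13 against 0.169. Smim1 was 2.38 against 0.309 but 5.77 in the globin-rich cells, and its ratio to all other cells was 1.14. The lowest were Apoe, Gngt2, Klf2, Afap1l1, Rasip1, Lmo2, Pdlim3 and Cd34, led by Apoe at 0.588 against 9.13, with Klf2, Rasip1, Lmo2 and Cd34 known from endothelial and blood cells.

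The compact and shared members were compared because the clusters divided them, so the clustering used the same cells and genes and the values below are descriptions chosen after the clusters were seen. Of the measured genes 2.17% were higher and 2.03% lower in the compact members by at least 2-fold, and 4 of 5 rule genes were higher. Of the 17 epicardial and mesothelial genes outside the rule 6 were higher and 0 lower in the compact members. Lrrn4 was 1.59 (1.32 to 1.91) against 0.393 (0.255 to 0.581), Krt19 2 against 0.488, and Scx 0.558 against 0.11. Bnc1 stayed under 2-fold at 0.64 (0.47 to 0.851) against 0.33 (0.205 to 0.505), and Alcam was 0.694 against 1.01.

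Several other genes had most of their UMIs in the compact members. Itga4 had 149 UMIs in 24 of 25 compact members, 2.03 (1.72 to 2.38), and 3 UMIs in 2 of 24 shared members. Lhx9 had 2.14 (1.82 to 2.5) against 0.252 (0.144 to 0.409), and Sox9, an HMG factor of the proepicardium and valve mesenchyme, 2.34 (2 to 2.72) against 0.315 (0.192 to 0.486), in 25 of 25 compact members. Tdo2 had 99 UMIs in 16 compact members and 0 in the shared ones, at least 28.5-fold higher at the limit of 3 counts over those 24 cells.

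Tubb3, a tubulin best known from neurons, had 3.61 (3.19 to 4.07) in the compact and 0.189 in the shared members. Aldh1a1 had 40 UMIs in 11 compact and 1 in 1 shared member, while Aldh1a2 had 8 UMIs in each set. Outside the lists the compact members were also higher for Akap12 (2.1 against 0.126), a kinase scaffold, Gadd45g (2.49 against 0.33), a stress and growth-arrest gene, and Ebf1 (1.54 against 0.173), a transcription factor of mesenchyme and blood.

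Of 13 venous pole genes 11 were lower and 0 higher in the compact than in the shared members. The list summed to 1.17 in the compact and 6.64 in the shared members, but also to 6 in the non-members of the shared cluster and 12.4 in the Osr1 cells, and against those non-members 1 gene was higher and 1 lower in the shared members. Shox2 was 1.21 (0.956 to 1.51) in the shared and 0.354 (0.231 to 0.518) in the compact members, and Wnt2, a ligand of the posterior second heart field, 2.28 against 0.64. Foxf1, a forkhead factor of splanchnic mesoderm, had 36 UMIs in 5 shared members and 0 in the compact ones, at least 13.9-fold lower there, and Hoxb1 had 25 UMIs in 8 shared members and 0 in the compact ones. Osr1, Hoxa3, Hoxa5, Hoxb5 and Gli1 also had 0 UMIs in the compact members, and Foxf2 had 0 in both.

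Other factors followed the same side. Nr2f1, an orphan nuclear receptor of venous and atrial tissue, was 1.24 (0.984 to 1.55) in the shared against 0.122 (0.056 to 0.233) in the compact members, and Tbx5, a T-box factor of the atria and venous pole, 0.661 against 0.0953. Of 10 pharyngeal mesenchyme genes 5 were lower in the compact members, among them Prrx2 (3.84 shared against 0.612 compact) and Alx1, with 33 UMIs in 14 shared members and 0 in the compact ones. That list summed to 6.54 in the shared and 1.13 in the compact members, but to 12.9 in the non-members of the shared cluster. The list's median per cell was 6.69 in the shared members and 7.51 in those non-members, where the maximum was 82.5. Against those non-members 0 of its genes were higher in the shared members and 3 lower. Nr2f1, Tbx5 and Sfrp1 did not reach 2-fold in that comparison. Sfrp1 was 4.58 (4.07 to 5.14) against 1.1 (0.875 to 1.37), in 24 of 24 shared members, whereas Sfrp5 was similar at 2.61 and 2.98. Acta2, smooth muscle actin, was 6.14 against 1.63, but 1 shared member reached 37.9 against a median of 2.17.

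Cxcl12 had 35 UMIs in 12 shared members and 0 in the compact ones, and its scavenger receptor Ackr3 was 0.818 (0.611 to 1.07) against 0.0408 (0.00842 to 0.119). The lipid phosphatase Plpp3 was 1.23 against 0.109, the matricellular Smoc2 0.787 against 0.0544, and the peptide hormone Adm 0.598 against 0.0136.

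Against the 57 non-members of their own cluster, the shared members had 0.539% of measured genes higher and 1.01% lower by at least 2-fold. The rule genes were an exception by selection, and 2 of 17 epicardial genes outside the rule were higher, Igfbp5 (5.68 against 2.48) and Sema3d (0.189 against 0.0314). Lhx9 was 0.252 (0.144 to 0.409) against 0.0157 (0.0019 to 0.0568) and Shox2 1.21 against 0.401. Col1a1, Crabp1 and Postn were lower in the shared members, at 1.07, 0.503 and 0.0629 against 4.94, 5.67 and 3.36. These pooled levels can rest on a few cells. Summed per cell, the matrix list had a median of 11.5 and a maximum of 309 in the non-members, against 12 and 34.3 in the shared members. The retinoic acid list, which holds Crabp1, had 7.43 and 93.3 against 4.65 and 10.7.

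Dissociation stress genes and depth differed between the compact and shared members too. Of 9 measured dissociation stress genes 6 were higher in the compact members and 0 lower, with Fos at 3.4 (2.99 to 3.85) against 1.37 (1.1 to 1.69) and Egr1 at 1.22 against 0.33, and the list summed to 12.4 (1.27 to 36.3 per cell) against 5.79 (0.839 to 26). The median depth was 33936 UMIs (8226 to 55163) in the compact and 25721.5 (7591 to 49843) in the shared members. Of the 16 endothelial genes, Tek and Tie1 were higher in the compact members (0.163 against 0.0315 and 0.109 against 0). The part of these in the differences was not tested. Summed cardiomyocyte genes were close, at 43.4 and 41.8, and so were the globins and other erythroid genes, at 64.9 and 66.1.

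**Figure D5:**
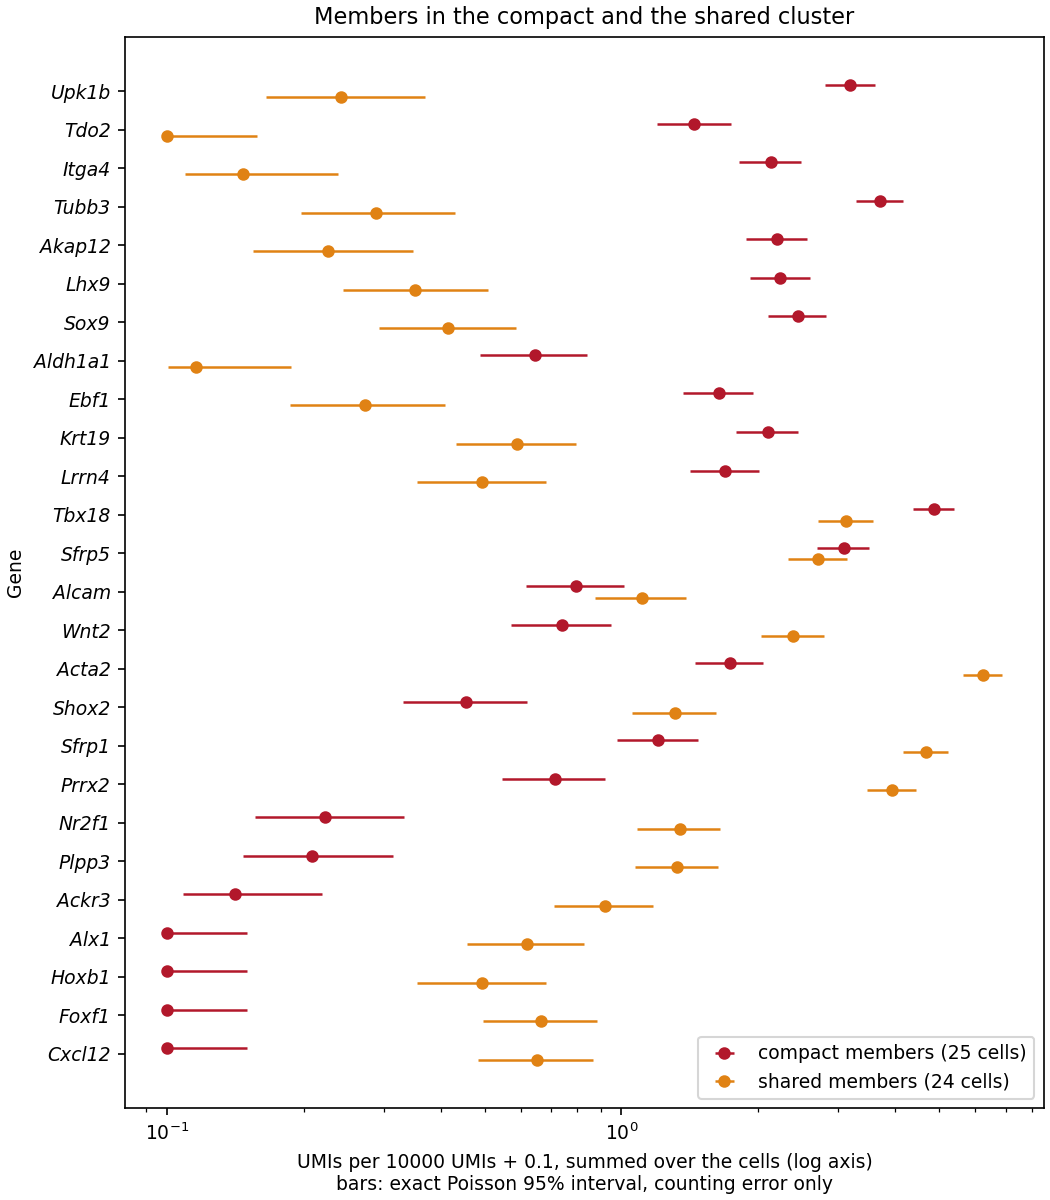
Points give the pooled level plus 0.1 (UMIs per 10000 UMIs, log axis) of 26 genes in the 25 compact and the 24 shared members, with exact Poisson 95% intervals for counting error only. From Upk1b down to Tbx18 the compact members are higher, Sfrp5 and Alcam have overlapping intervals, and from Wnt2 down to Cxcl12 the shared members are higher.

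Among the members the spread of single genes was measured with every cell thinned to 5000 UMIs. Over 897 genes with a mean of at least 1 UMI, the variance was a median of 1.15 times the mean, close to counting error. It was largest outside the rule genes for Actb (32.9 times), where members held 2 to 121 UMIs with a median of 14. Next came Rps2 (8.72), S100a11 (7.83), Acta2 (7.23), Dlk1 (6.35), Tmsb4x (5.76), Malat1 (4.82) and Myl7 (4.6). The values for S100a11 and Dlk1 rested in part on a member outside both clusters. For S100a11 it held 25 UMIs, against at most 6 in compact and 5 in shared members. For Dlk1 the highest was 23, also outside both clusters, against at most 7 and 9. Actb varied within both sets, from 2 to 87 in the compact and 4 to 121 in the shared members, so the clusters did not divide it.

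Correlations among the rule genes within the members are shaped by the rule, since a cell that lacks one of them must hold others. Across the 51 cells at 5000 UMIs, Spearman's rho was 0.405 for Upk3b with Wt1, 0.375 for Upk3b with Upk1b and 0.368 for Wt1 with Upk1b, whereas Tbx18 gave -0.17 with Wt1 and 0.082 with Upk3b. Within the 25 compact members rho was 0.507 for Upk3b with Wt1 and -0.564 for Tbx18 with Wt1, and within the 24 shared members these were 0.216 and -0.13. The cells share 1 library and the counts are sparse, so these values are descriptions.

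Over all 1199 kept cells at 5000 UMIs, the genes most like each rule gene were taken by Spearman's rho among 10312 genes. Tbx18 went with Upk3b (0.427), Wt1 (0.372) and Itga4 (0.339), and Upk3b with Wt1 (0.498), Lrrn4 (0.467) and Tbx18. Wt1 went with Upk3b, Lrrn4 (0.411) and Tbx18, and Upk1b with Upk3b (0.401), Lrrn4 (0.376) and Wt1 (0.329). Tcf21 stood apart, with Ptn (0.298), H3f3b (0.29) and Marcksl1 (0.282).

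The same rule found 0 cells in the mitral valve libraries, of 316 kept cells at E16.5, 283 in P0 replicate 1 and 177 in P0 replicate 2, which allows shares of up to 0.949%, 1.06% and 1.69%. These cells were shallower, with median depths of 2361.5, 5164 and 4434 UMIs against 24728 at E9.5. With cells thinned to 1000 UMIs, which left out 2 shallower cells at E16.5 and 0 elsewhere, 9 cells met the rule in the E9.5 library and 0 in the others. Over kept cells, a share of 9 in 1199 lies within what 0 cells allow in each valve library taken alone. The rule admits only cells under both limits, which were 406 at E9.5 and 305, 283 and 176 in the valve libraries. A comparison at matched depth therefore depends on which cells are counted, and whether the shares differ was not tested.

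Some rule genes were present in the later libraries. Tcf21 had 139 UMIs in 43 cells of P0 replicate 1 and 42 in 22 cells of replicate 2, levels of 0.764 (0.643 to 0.903) and 0.416 (0.3 to 0.562) per 10000. Wt1 had 59 and 31 UMIs and Tbx18 71 and 21 in the same libraries. The uroplakins were nearly absent from both, with 0 Upk3b UMIs in each and 1 and 0 for Upk1b. At E16.5 Upk3b had 2 UMIs, Upk1b 0, Wt1 6, Tbx18 5 and Tcf21 9. In P0 replicate 1, 30 cells under both limits had exactly 2 rule genes, and 10 did in replicate 2.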

How the data were processed

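Droplet libraries of sorted tdTomato cells were made with a 10x 3' kit, per the labels' protocols, and aligned and counted with Cell Ranger 2.1.1 against mm10, per the submitters' processing notes. The deposited matrices hold raw UMI counts per gene and cell (27998 genes), and tissue was pooled from at least 60 embryos per stage. Depth at E9.5 was 30762356 UMIs over 1199 kept cells. Deposited cell barcodes were not used, because the lists at E9.5 and E16.5 hold far more barcodes than the matrices have cells and each P0 list has as many entries as the matrix of the other P0 library has cells, so shared barcodes could not be counted.

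Counts were pooled over cells in Python 3.11.15 (scanpy 1.11.5, scipy 1.17.1, pandas 2.3.3, numpy 2.4.6). Cells were clustered with the Leiden method (2000 variable genes, 20 components, 15 neighbours, resolution 1, seed 0). Cluster leading genes were ranked by fold with 0.5 added, leaving out the rule genes. Doublets were scored with Scrublet and kept, 4 of 1199 cells being scored, so the caller did not work well here. The pooling and ratio steps were tested on simulated data.

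The members and the 24 gene lists were chosen with earlier results of these data known. Named genes were the rule genes, up to 4 of each list by ratio, the 12 highest and 8 lowest outside the lists, the 8 of largest spread and the 3 most correlated with each rule gene. Other genes named here, among them Fgf18 and all genes singled out between compact and shared members, were chosen after their values were seen. Gene positions are not printed beyond the upstream windows. Some genes of the lists are not reported here.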

Additional observations from a re-analysis of the deposited data

How the results depend on the processing

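The counts of genes at least 2-fold higher (304) and lower (348) in the members than in all other E9.5 cells depended on the number added to each level, with 474 and 524 at 0.05 and 78 and 121 at 0.5. Against the other cells under both limits 183 were higher, and with all cells thinned to 5000 UMIs 529 were lower. The number of members (51) was 80 with at least 2 rule genes, 35 with at least 4 and 34 after thinning to 5000 UMIs. The cause was not tested. All other settings kept these counts within 1.5 times, and the 49% of members in 1 cluster was the same at resolutions of 0.5 and 2. Of the ratios of single named genes under all settings, 1033 stayed within their counting error. These include all 112 ratios at no minimum and at a minimum of 100 summed UMIs, settings that cannot change a ratio. Another 527 moved past their counting error and 8 changed direction. Against the other cells under both limits the ratio was 1.49 for Des, 0.844 for Id3, 1.57 for Acta2, 1.33 for Cnn1, 2.01 for Tnni1 and 1.00 for Hba-x. With compact members only it was 0.616 for Alx1, and with members outside the compact cluster only it was 0.907 for Tdo2; these 2 settings were chosen after seeing the data. No paired analysis was possible because E9.5 has 1 library and the result comes from no test, and for the same reason no replicate could be left out. Depth limits the rule itself, since a cell with few UMIs can miss a transcript it holds.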
